A study of Citrullus lanatus with 6 samples.

Results

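Type-A response regulators are short phosphorelay proteins of cytokinin signaling, and 4 genes of this class were followed in watermelon leaves after salt stress. The members are the genes that the study's list of hormone signaling genes assigns to cytokinin and to the class A-ARR, and all 4 are among the 23568 genes of the expression table. That list holds genes which the study found to differ between salt-treated and control leaves in these same libraries. The members were thus selected on their FPKM in salt against control, and their differences are given below as a description, without a test and without a p-value. The other 10 cytokinin genes of the list, with which the members are contrasted, are 6 type-B response regulators (B-ARR), 2 histidine phosphotransfer proteins (AHP) and 2 histidine kinases (CRE1), all chosen in the same way.

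Leaves came from seedlings of the cultivar Crimson Sweet, 6 weeks old, that had been lifted from a soilless medium, washed and kept in tubes for 7 h. The salt group stood in 300 mM NaCl and the control group in purified water, so that the seedlings of both groups had been taken out of their medium. Each group has 3 libraries from independent plants. Part of the labels calls the treated libraries drought-stressed, while their treatment protocol, the title of the series and the paper say salt, and they are taken as salt-treated.

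Cytokinins are perceived by membrane-bound histidine kinases, which pass a phosphoryl group through histidine phosphotransfer proteins to response regulators in the nucleus. Type-B response regulators are transcription factors and switch on target genes when phosphorylated. Type-A genes are among their quickest targets in Arabidopsis, and the proteins lack the DNA-binding part of type B and act back on the pathway as inhibitors. For this reason transcripts of type-A genes are widely used as a readout of cytokinin response.

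Expression was measured as FPKM, the fragments of a gene per kilobase of its length, scaled to the total of the library. The values resolve into whole fragments, with 18838185 to 21258223 fragments per library behind them. Each fold change is salt minus control in units of log2(FPKM + 0.5), a scale that makes differences of weak genes look smaller. Standard errors come from a limma fit over 16638 genes whose mean reached 0.5 FPKM. In that fit 47.8% of the genes passed an adjusted p below 0.05, and the middle of all their log2 fold changes was -0.57. Scaling each library by its median ratio to the mean library brought this median to -0.03, and values under that scaling are given beside the deposited ones. The 11 chlorophyll a/b binding protein genes that serve as leaf markers summed to 5213 to 7134 FPKM in control and 184 to 2131 FPKM in salt libraries, lowest in salt replicate 2, and 10 of the 11 were above 0 in every library. They come from the study's list of photosynthesis genes that differed in these same libraries, so their difference is no independent evidence. The part of this difference in the results below was not tested. In whole leaves, fewer cells that express a gene and less RNA per cell cannot be told apart.

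The gene lengths behind the FPKM values, which played no part in the choice of the genes, set type A apart from type B and from the receptors but not from AHP. The type-A genes were 769, 822, 1073 and 1320 bp long, and the type-B genes 1356 to 2876 bp. The shortest type-B gene, ClCG05G022410, was therefore just longer than the longest type-A gene, and its length was inferred from only 5, 8 and 18 fragments in salt libraries. Type-A proteins lack the DNA-binding part of type B, so a shorter length goes with the class and is no independent evidence. The AHP genes, which code for small proteins, were 976 and 1127 bp long and thus within the range of type A, and the CRE1 genes, which code for large receptors, 3970 and 6497 bp.

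All 4 type-A genes were higher in salt-treated leaves, and for each of them every salt library was above every control library. Across all genes tested, 17.7% had salt libraries that all lay above the control libraries in the deposited values, and 29.2% after median-ratio scaling, under which the 4 genes were separated as well. Since the contrast chose the genes, nothing is read from this count. The log2 fold changes of the 4 genes ran from 1.21 to 2.54 with a median of 1.76, which is 2.33 above the median of all genes tested. After median-ratio scaling the median was 2.26, which is 2.29 above that of all genes.

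**Figure D1:**
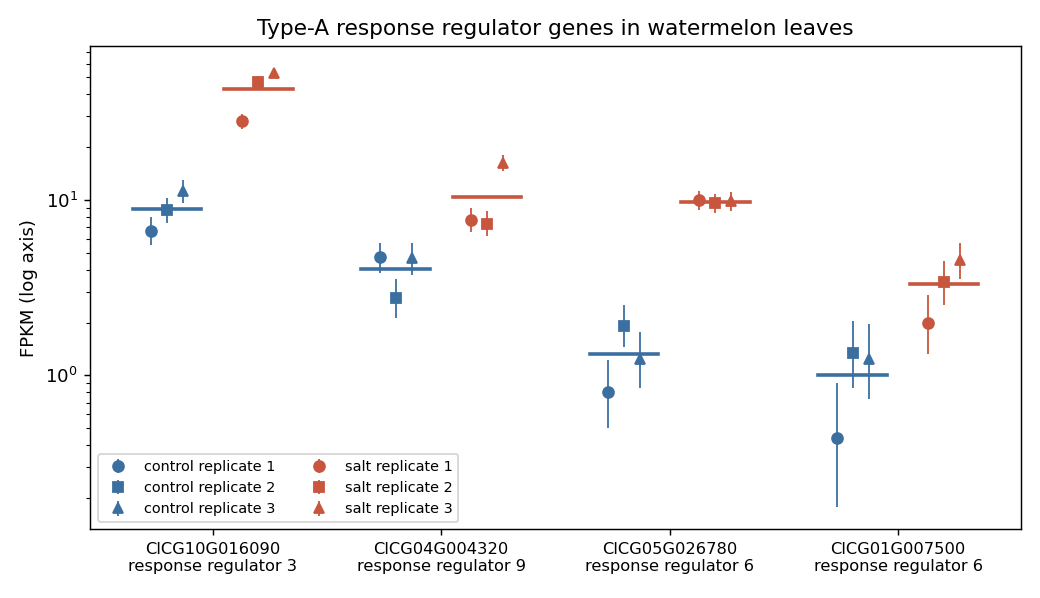
FPKM of the 4 type-A genes on a log axis, with 1 point for each library (blue for control, red for salt, the shape giving the replicate), vertical bars for the exact 95% Poisson interval of the fragments and horizontal lines for the mean of the 3 libraries. The 3 salt points of each gene lie above its 3 control points, and the salt points of ClCG05G026780 lie between 9.60 and 9.94 FPKM.

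ClCG10G016090, described as response regulator 3, was the most abundant type-A gene in every library. It had 6.69, 8.76 and 11.2 FPKM in control replicates 1 to 3 and 28.1, 47.2 and 53.0 FPKM in salt replicates 1 to 3. The lowest salt library was 2.50 times the highest control library, and the lowest value of either group was in its replicate 1. The control mean was 8.89 ± 2.28 FPKM (SD, n = 3) and the salt mean 42.8 ± 13.05 FPKM (SD, n = 3). Their ratio was 4.81, and the log2 fold change was 2.18 with a standard error of 0.325. The gene was covered by 114 to 174 fragments in control and 438 to 877 in salt libraries. Its spread of 30.5% of the mean between salt libraries was larger than the 3.82% that counting alone gives at this depth. Among the 19557 genes with a value it stood between the 45.2 and 52.5 percentile in control and between the 78.7 and 88.8 percentile in salt libraries, and this rank does not depend on the scaling of a library.

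ClCG05G026780, described as response regulator 6, had the largest ratio of the 4 genes. It was listed at 0.803, 1.92 and 1.25 FPKM in control replicates 1 to 3 and at 9.94, 9.60 and 9.87 FPKM in salt replicates 1 to 3. Each salt library thus stood at least 4.99 times above each control library. The control mean was 1.325 ± 0.565 FPKM (SD, n = 3) and the salt mean 9.80 ± 0.179 FPKM (SD, n = 3). Their ratio was 7.398, and the log2 fold change was 2.54 with a standard error of 0.358. This log2 fold change exceeded that of 96.1% of the genes tested. The salt libraries were closer to each other than counting alone would give, with a spread of 1.83% of the mean against 6.31%, from 243 to 262 fragments. That closeness holds for the deposited values only, as the spread was 15.3% after median-ratio scaling. The control values rest on 22, 54 and 31 fragments.

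ClCG01G007500 carries the same description, response regulator 6, and was the weakest of the 4 genes in every library. It had 0.439, 1.35 and 1.24 FPKM in control replicates 1 to 3, from 7, 22 and 18 fragments, and 1.99, 3.39 and 4.52 FPKM in salt replicates 1 to 3, from 29, 50 and 70 fragments. The groups did not overlap, but the lowest salt library was only 1.48 times the highest control library. The 95% Poisson intervals of those 2 libraries, which cover counting error only, ran from 1.33 to 2.85 FPKM in salt replicate 1 and from 0.843 to 2.04 FPKM in control replicate 2, and so overlapped. The control mean was 1.01 ± 0.4965 FPKM (SD, n = 3) and the salt mean 3.30 ± 1.27 FPKM (SD, n = 3). Their ratio was 3.27, and the log2 fold change was 1.34 with a standard error of 0.457. At this depth the size of the difference is the least precise of the 4 genes.

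ClCG04G004320, described as response regulator 9, ranked next to ClCG10G016090 in control leaves. It had 4.72, 2.76 and 4.65 FPKM in control replicates 1 to 3 and 7.71, 7.34 and 16.4 FPKM in salt replicates 1 to 3. Salt replicate 3 stood well above the other salt libraries, which were close to each other. The lowest salt library was 1.56 times the highest control library. The control mean was 4.04 ± 1.11 FPKM (SD, n = 3) and the salt mean 10.5 ± 5.10 FPKM (SD, n = 3). Their ratio was 2.59, and the log2 fold change of 1.21, with a standard error of 0.408, was the smallest of the 4 genes. Without salt replicate 3 the log2 fold change was 0.85.

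In control leaves the order of the 4 levels was the same in all 3 libraries, with ClCG10G016090 first, ClCG04G004320 next, then ClCG05G026780 and ClCG01G007500 last. The ranges of the first and the next gene did not overlap over the control libraries, nor did those of ClCG04G004320 and ClCG05G026780. The last pair overlapped, at 0.803 to 1.92 and 0.439 to 1.35 FPKM, and did not differ beyond their spread. In salt-treated leaves ClCG10G016090 was again first and ClCG01G007500 last in every library, with no overlap to their neighbours. The middle places were not fixed, since ClCG05G026780 was above ClCG04G004320 in salt replicates 1 and 2 and below it in salt replicate 3, and their ranges overlapped.

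The pair with the shared description parted in salt-treated leaves. The ratio of ClCG05G026780 to ClCG01G007500 within a library, which cancels the scaling of that library, was 1.83, 1.43 and 1.00 in control replicates 1 to 3 and 5.002, 2.83 and 2.18 in salt replicates 1 to 3. The ratios did not overlap between the groups, although salt replicate 3 was close to control replicate 1. The ratio of ClCG10G016090 to ClCG04G004320 was 1.42, 3.17 and 2.42 in control and 3.64, 6.43 and 3.24 in salt libraries, so that the groups were separated by a small margin only. That of ClCG05G026780 to ClCG04G004320 overlapped between the groups, with 0.170 to 0.697 over the control libraries against 0.603 to 1.31 with salt. The paper states that FPKM rests on uniquely mapped reads, and whether the genes of this pair share stretches of sequence that would lose reads in this way was not tested.

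The summed level of the 4 genes was 12.6, 14.8 and 18.4 FPKM in control replicates 1 to 3 and 47.7, 67.5 and 83.8 FPKM in salt replicates 1 to 3. The control mean was 15.3 ± 2.90 FPKM (SD, n = 3) and the salt mean 66.3 ± 18.1 FPKM (SD, n = 3), which is 4.34 times as high. ClCG10G016090 made up 52.9% to 61.15% of the sum in control leaves and, overlapping with this, 58.8% to 69.9% in salt-treated leaves. The share of ClCG04G004320 overlapped slightly, at 18.7% to 37.3% in control against 10.9% to 19.5% with salt, and that of ClCG05G026780 was 6.35% to 13.0% and 11.8% to 20.8%. The share of ClCG01G007500 overlapped as well, so that no gene's share of the sum was apart between the groups.

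**Figure D2:**
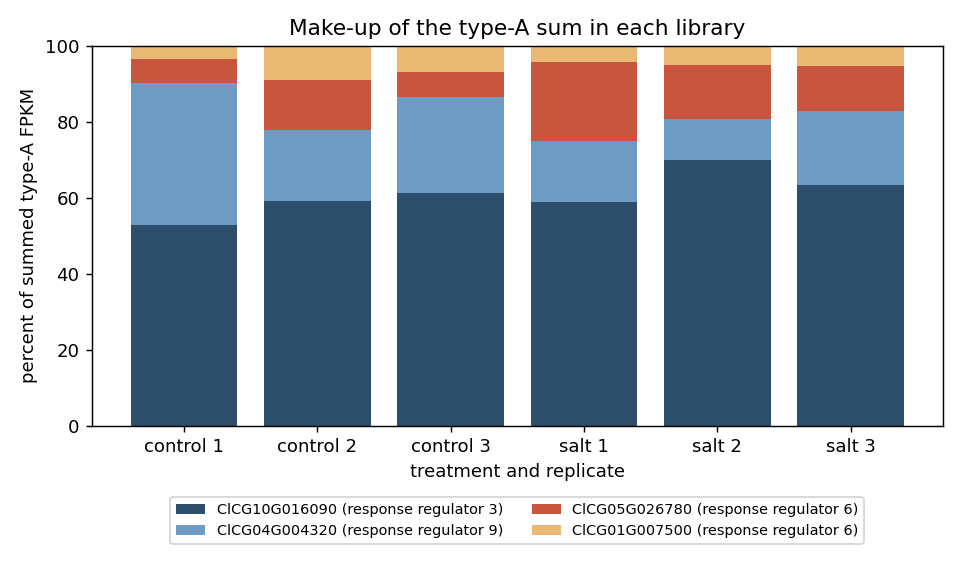
Share of each type-A gene in the summed type-A FPKM of a library, in percent, with 1 bar for each of the 3 control and 3 salt libraries. ClCG10G016090 takes 52.9% to 69.9% of every bar, and ClCG01G007500 takes the smallest share, 3.47% to 9.10%.

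The listed genes of type B, the class that stands next to type A in the pathway, were split in direction, with 3 of the 6 higher in salt as the type-A genes were. The list holds only genes that differed. It does not cover ClCG02G005680 (ARR14) and ClCG03G001320 (ARR1), described without a class, whose log2 fold changes were 4.18 and 1.91. Of the 6 type-B genes, which code for the transcription factors of the pathway, 3 were higher and 3 lower in salt, in each case without overlap between the groups. In the deposited values 43.4% of all genes tested lay wholly lower in salt, and after median-ratio scaling 28.2%, and the split of the type-B genes was the same under both. Over the 5 type-B genes that could be fitted the median log2 fold change was -1.24, or -0.67 relative to all genes. This place did not hold without control replicate 1, when the type-B median was -0.19 and that of all genes -0.59, nor without control replicate 2, at -0.22 and -0.56, nor without the filter on low values, at -0.22 and -0.41.

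Among the type-B genes higher in salt, ClCG05G006350 (response regulator 2) had 8.87, 9.09 and 9.60 FPKM in control and 27.7, 14.7 and 15.4 FPKM in salt replicates 1 to 3. ClCG11G003560 (response regulator 12) had 5.17, 5.69 and 6.64 FPKM in control and 10.4, 14.2 and 8.998 FPKM in salt replicates 1 to 3. Their log2 fold changes, 0.97 with a standard error of 0.309 and 0.87 with one of 0.302, were both below that of every type-A gene with all libraries in the fit. Without salt replicate 3 they were 1.10 and 1.01, above the 0.85 of the type-A gene ClCG04G004320. ClCG05G022410, described as ARR2, had 0 fragments in all control libraries and 5, 8 and 18 fragments in salt replicates 1 to 3, or 0.194 to 0.660 FPKM. A count of 0 allows up to 3 fragments over the control group, and the observed salt level was 10.8-fold above that floor. This value allows for the counting error of the control group only, not for that of the salt fragments or the spread between libraries. The mean of the gene was too low for the fit.

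The type-B gene that was most abundant in control leaves was on the other side. ClCG06G004810, also described as ARR2, had 43.3, 36.7 and 38.6 FPKM in control and 20.9, 12.3 and 17.1 FPKM in salt replicates 1 to 3, which gives a log2 fold change of -1.24 with a standard error of 0.261. ClCG05G016480, which shares the description response regulator 12 with a gene that was higher, had 12.6, 9.97 and 13.4 FPKM in control and 4.50, 3.17 and 5.615 FPKM in salt replicates 1 to 3. ClCG08G017460 was covered by 98, 74 and 17 fragments in control and by 1, 0 and 0 fragments in salt replicates 1 to 3. Pooled over the libraries its level was 181 times higher in control, with an exact 95% binomial interval from 32.1 to 7188 that covers counting error only. In both pairs of type-B genes with a shared description, response regulator 12 and ARR2, 1 gene was higher and the other lower in salt.

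Both phosphotransfer genes were lower in salt. ClCG05G005660, the most abundant of all 14 cytokinin genes in control leaves, had 72.8, 71.3 and 84.1 FPKM in control and 22.1, 3.90 and 12.7 FPKM in salt replicates 1 to 3, which gives a log2 fold change of -2.80 with a standard error of 0.534. Its lowest value was in salt replicate 2, where the leaf markers were lowest too. Without that library the log2 fold change was -2.14. ClCG06G005570 had 15.9, 26.8 and 14.7 FPKM in control and 5.75, 6.34 and 7.15 FPKM in salt replicates 1 to 3, without overlap.

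As deposited, the receptor genes had the smallest log2 fold changes of the fitted cytokinin genes in absolute size, without regard to sign. That order did not hold after median-ratio scaling, with 1.14 and 1.18 for the receptors against -0.67 for ClCG06G004810. ClCG02G002700 had 7.085, 6.87 and 7.885 FPKM in control and 11.3, 8.69 and 15.7 FPKM in salt replicates 1 to 3, which gives a log2 fold change of 0.63 with a standard error of 0.306. ClCG01G006710 had 1.54, 0.889 and 1.15 FPKM in control and 3.54, 1.27 and 2.40 FPKM in salt replicates 1 to 3, and its groups overlapped as deposited and were apart after median-ratio scaling. The median log2 fold change was 0.68 for the receptors and -2.13 for the phosphotransfer genes.

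**Figure D3:**
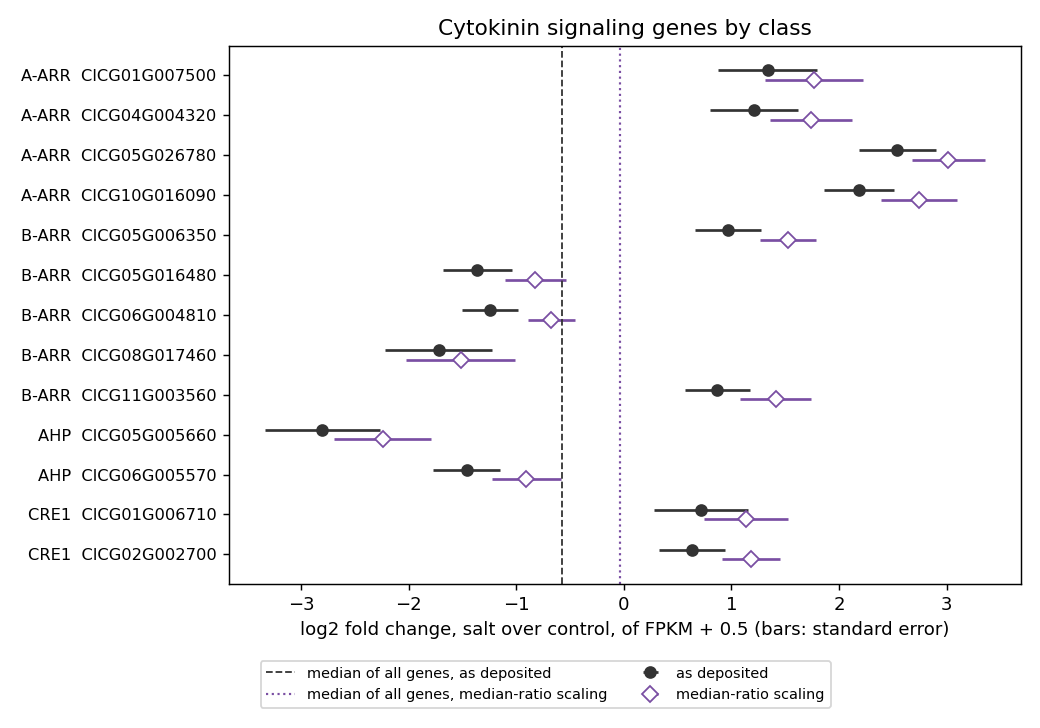
Log2 fold change of salt over control with its standard error for the 13 cytokinin genes that passed the expression filter, ordered by class, as deposited (filled circles) and after median-ratio scaling (open diamonds), with the median of all genes tested as vertical lines. The 4 type-A genes lie between 1.21 and 2.54 as deposited, to the right of the 9 other genes plotted, though without salt replicate 3 ClCG04G004320 (0.85) was below 2 type-B genes (1.10 and 1.01), while the type-B genes lie on both sides of 0.

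Ratios of class sums within a library do not depend on the scaling between libraries, and they set the type-A genes against each of the other classes. The type-A sum was 0.176, 0.235 and 0.268 of the type-B sum in control replicates 1 to 3 and 0.749, 1.51 and 1.75 of it in salt replicates 1 to 3. In 2 of the 3 salt libraries type-A transcripts thus outweighed those of the listed type-B genes. In control libraries they reached at most 0.268 of that sum. The sum leaves out ClCG02G005680 (ARR14) and ClCG03G001320 (ARR1), which the study describes without a class. In salt replicates 1 to 3 the former had 69.7, 58.6 and 48.2 FPKM and the latter 31.5, 27.7 and 35.9 FPKM. If both were counted as type B, the type-A sum would be below the type-B sum in every salt library. The comparison thus covers the listed genes only. Relative to the phosphotransfer genes the type-A sum was 0.1425, 0.151 and 0.186 in control and 1.71, 6.595 and 4.215 in salt replicates 1 to 3. Relative to the receptors it was 1.47, 1.91 and 2.03 in control and 3.22, 6.775 and 4.64 in salt replicates 1 to 3. The groups were apart in all 3 ratios, the salt libraries differed from each other more than the control libraries did, and salt replicate 1 was the salt library nearest to control in each. Since the same contrast chose the genes of every class, nothing is read from this separation.

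**Figure D4:**
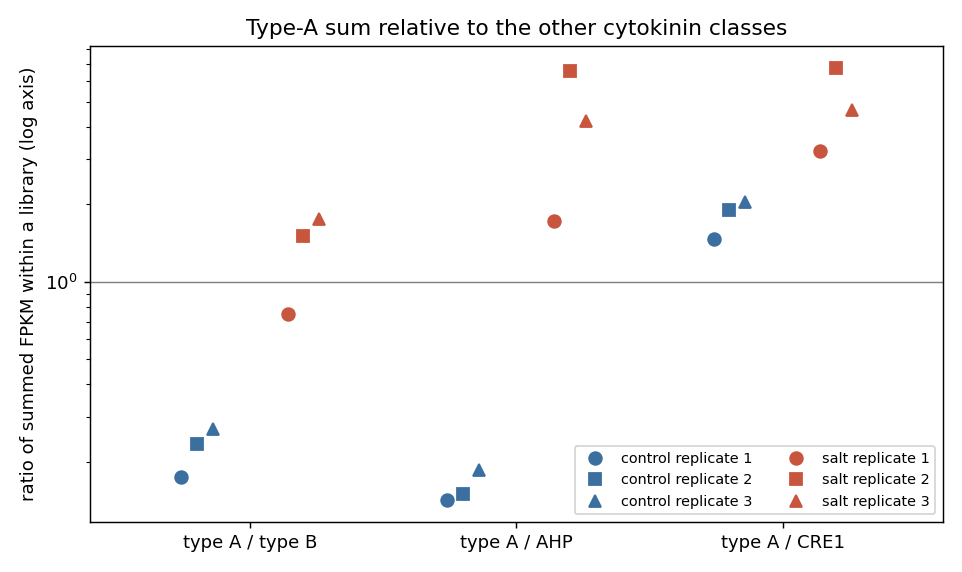
Summed FPKM of the 4 type-A genes divided by that of the 6 type-B, 2 AHP and 2 CRE1 genes in the same library, on a log axis, with 1 point per library and a line at a ratio of 1. The control libraries lie at 0.1425 to 0.268 against type B and AHP and at 1.47 to 2.03 against CRE1, below the salt libraries in each case. The type-B sum leaves out ClCG02G005680 and ClCG03G001320, with which it would exceed the type-A sum in every salt library.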

How the data were processed

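Leaf RNA of 3 control and 3 salt-treated watermelon plants was sequenced as paired-end reads of 150 bp, and the authors aligned cleaned reads to the Charleston Gray genome. The paper names Bowtie, TopHat and HTSeq, and the submitters' processing notes name fastp, HISAT2 2.1.0 and featureCounts; which of these made the table is not settled. The deposited FPKM values were made by the authors, each library on its own.

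From the steps of FPKM values, whole fragments and the shortest gene length that gives them were found for all 19557 genes with a value. The tolerance was 0.002 fragments or a relative 1e-07. Both this recovery and the fit were tested on simulated data. There the recovery missed the counts of some genes, and the fit missed most of the smaller changes. Genes whose mean reached 0.5 FPKM were fitted with limma 3.58.1 (R 4.3.3) on log2(FPKM + 0.5) with a variance trend and Benjamini-Hochberg adjustment. Tables and figures were made with Python 3.11.15.

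Alternatives were the pseudocount, filter, scaling, variance trend, replicate block, each library left out and, chosen after seeing the data, voom on recovered fragments. For libraries with the same replicate number, deviations from the group means had correlations over genes of 0.175, 0.105 and 0.128. For unlike numbers these were -0.108 to -0.0391. Deviations from a group mean cancel out over the group, so positive values for like numbers make the others negative as a set. Only the values for like numbers are a hint of pairing, from the data and not from the labels. The reported fit and its standard errors have no replicate block, and the blocked fit is an alternative.

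The members and lists were chosen with earlier results of these data known. Named genes were the 14 cytokinin genes of the study's hormone list, the 4 further genes described for cytokinin or as phosphorelay response regulators in the part of its list of differing genes used here, and for each type-A gene the 2 genes of at least 5 FPKM with the nearest profile. Columns of the authors' own fold changes and p-values were not used. Sequences were not analysed here.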

Additional observations from a re-analysis of the deposited data

How the results depend on the processing

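Over 193 values of single cytokinin genes under an alternative setting, 193 kept the sign of the reported log2 fold change. The filter, the variance trend and the replicate block cannot change the fold change of a fitted gene. The genes were also chosen for differing, so this count is no measure of support. Scaling by a common sum moved no gene's value or class median by more than the spread between replicates, and other scalings moved many of them. After median-ratio scaling the log2 fold change was 2.74 for ClCG10G016090, 3.01 for ClCG05G026780 and 1.74 for ClCG04G004320, and the medians were 2.26 for type A, -0.67 for type B, -1.57 for AHP and 1.16 for CRE1. With quantile normalization the values were 2.64 for ClCG10G016090, 1.90 for ClCG01G007500, 3.05 for ClCG05G026780 and 1.81 for ClCG04G004320, with medians of 2.27 for type A, -0.76 for type B, -1.64 for AHP and 1.25 for CRE1. A pseudocount of 0.1 gave 2.87 for ClCG05G026780, and voom on recovered fragments 2.95 for that gene and a type-A median of 2.01. Without a filter the type-B median was -0.22, since a gene at 0 in control then entered. Without 1 library at a time, the log2 fold change ran from 2.00 to 2.46 for ClCG10G016090, 1.03 to 1.61 for ClCG01G007500, 2.32 to 2.77 for ClCG05G026780 and 0.85 to 1.40 for ClCG04G004320. The medians then ran from 1.55 to 2.03 for type A, -2.36 to -1.80 for AHP and 0.55 to 0.93 for CRE1. The type-B median ran from -1.39 to -0.19, and was -0.19 without control replicate 1 and -0.22 without control replicate 2, when ClCG08G017460 no longer passed the filter. With the replicate block 8016 genes passed an adjusted p below 0.05 from limma, against 7950 without it, and the fold changes stayed the same. Without 1 library the number was 5329 to 7541. Of the genes called, 28.5% were higher in salt as deposited, 51.9% after median-ratio scaling and 48.6% with quantile normalization. Among the type-A genes, ClCG01G007500 had the fewest fragments, 7 to 22 in control.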

Other observations

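A single gene for making cytokinin and a single gene for breaking it down were also higher in salt-treated leaves. So were 2 further response regulator genes that the study describes without a class. All 4 are from the part of the study's list with genes that it found higher in these libraries, so their direction is no independent evidence. ClCG02G013960, a putative cytokinin dehydrogenase of the kind that breaks cytokinin down, had 2.94, 3.77 and 3.27 FPKM in control and 31.2, 15.8 and 45.5 FPKM in salt replicates 1 to 3, a ratio of means of 9.27. ClCG10G018490, described as a cytokinin riboside phosphoribohydrolase of the kind that releases active cytokinin, had 5, 0 and 3 fragments in control and 34, 87 and 10 fragments in salt replicates 1 to 3. The salt values of the latter ran from 0.767 to 7.00 FPKM, so that its level was barely measured in control and uneven in salt. ClCG02G005680, described as ARR14, had 3.77, 2.2 and 2.41 FPKM in control and 69.7, 58.6 and 48.2 FPKM in salt replicates 1 to 3. Its ratio of means of 21.05 was larger than that of each type-A gene. ClCG03G001320, described as ARR1, had 7.52, 9.89 and 7.02 FPKM in control and 31.5, 27.7 and 35.9 FPKM in salt replicates 1 to 3. At 1561 and 1551 bp, both genes were longer than the 4 type-A genes and within the 1356 to 2876 bp of the listed type-B genes. Both are described as a two-component response regulator, as are the listed type-B genes ClCG05G022410 and ClCG06G004810 and none of the type-A genes. Whether they belong to type B was not tested, and the type-B results above do not count them.

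Once each was centred on its own mean, the measured profiles of the type-A genes over the 6 libraries differed to an unequal extent between pairs. These differences include counting error, with 7 to 22 control fragments for ClCG01G007500 and 22 to 54 for ClCG05G026780, and its part was not tested. The closest pair was ClCG05G026780 and ClCG10G016090, with a root mean square difference of 0.414 on the log2(FPKM + 0.5) scale, and 151 other genes whose mean reached 5 FPKM were nearer to ClCG05G026780 than that. The farthest was ClCG04G004320 from ClCG05G026780, at 0.888, and 4043 such genes were nearer to ClCG04G004320. The number of genes compared is not given here, so these counts do not show how alike a pair was. The profile nearest to ClCG10G016090 was that of ClCG09G000680, described as a glucose-methanol-choline oxidoreductase, at 0.0911, followed by ClCG11G016630, a putative amine oxidase, at 0.137. Nearest to ClCG05G026780 were ClCG04G007410, an inositolphosphotransferase of sphingolipid synthesis, at 0.193, and ClCG07G014490, a jasmonate ZIM-domain protein, at 0.1975. Nearest to ClCG01G007500 were ClCG10G015930, a Dof zinc finger protein, at 0.154, and ClCG02G006660, a putative protein phosphatase 2C, at 0.168. Nearest to ClCG04G004320 were ClCG01G021380, a putative pentatricopeptide repeat protein, at 0.124, and ClCG05G000660, of fucose metabolism, at 0.151. With 6 libraries in 2 groups many genes have like profiles, and no shared control is read from this.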
